A study of Caenorhabditis elegans with 2 samples.

Results

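The peaks described here are the 250 on chromosome V among 1707 in the conservative peak set of the homeobox protein CEH-100 of Caenorhabditis elegans, of which 1685 lie on the 6 nuclear chromosomes. Every peak on chromosome V was taken, and each was placed by its summit, the base of highest signal within the peak. The centre is the middle 50% of the chromosome by length, from base 5231045 to base 15693135 of the ce11 assembly, and the arms are the outer 25% at each end. The centre holds 176 of the 250 peaks, and the arms hold 74, of which 38 lie in the left arm and 36 in the right arm.

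The data come from chromatin immunoprecipitation and sequencing (ChIP-seq) of whole young adults of strain RW12233, aged 64 hours, whose endogenous ceh-100 gene carries an insertion made with CRISPR that adds TY1, EGFP and 3xFLAG tags. An antibody against GFP was used on sonicated chromatin with fragments of 200 to 800 bp. The animals were synchronised by bleaching and starvation as first-stage larvae, and all belong to 1 group with 2 biological replicates, so no condition is compared. Whole animals were used, so binding in 1 tissue cannot be told apart from binding in another. The authors thresholded peaks by the irreproducible discovery rate (IDR), which scores how alike peaks rank in 2 lists. In the conservative set those are the lists of the 2 replicates, and each replicate also has a thresholded list of its own. The peak lists carry no read counts, so the depth of the libraries is unknown, and the 95% Wilson intervals given with shares cover counting error only.

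Homeobox proteins are transcription factors that bind DNA through a homeodomain, and many homeodomains prefer sites with a TAAT core. The autosomes of C. elegans have a centre with little meiotic recombination and arms with more recombination and more repeats. Chromosome V is known for large arrays of rapidly evolving gene families, above all the serpentine chemoreceptors, which are expressed mainly in sensory neurons and used to detect odours and other chemicals. Genes used in most cells, such as those of ribosomes and proteasomes, lie on all chromosomes.

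Sequences of the summit base with 50 bases on either side are printed for some of the highest peaks of each region. Those printed are the 3 centre peaks and the 3 arm peaks of highest signal whose summit is intergenic and at most 500 bp from the start of a protein-coding gene, and whose window overlaps no annotated untranslated region. They were read from the plus strand of the RefSeq copy of WBcel235, which has the coordinates of ce11. Capitals mark GCGC, which is its own reverse complement. The centre windows, named by their nearest gene, lie at chrV:13715428-13715528 (zipt-9), chrV:14347365-14347465 (cept-2) and chrV:15002269-15002369 (fib-1).
zipt-9: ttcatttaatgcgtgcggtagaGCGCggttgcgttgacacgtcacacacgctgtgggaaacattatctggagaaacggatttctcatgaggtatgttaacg
cept-2: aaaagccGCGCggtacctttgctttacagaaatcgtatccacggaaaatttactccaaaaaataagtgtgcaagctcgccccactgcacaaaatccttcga
fib-1: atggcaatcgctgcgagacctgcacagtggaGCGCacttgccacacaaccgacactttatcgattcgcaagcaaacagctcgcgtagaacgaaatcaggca

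The arm windows lie at chrV:1003870-1003970 (Y50D4C.5, left arm), chrV:5049388-5049488 (pqn-51, left arm) and chrV:16553106-16553206 (Y32B12B.4, right arm).
Y50D4C.5: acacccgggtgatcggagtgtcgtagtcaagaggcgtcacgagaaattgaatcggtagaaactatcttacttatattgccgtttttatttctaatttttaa
pqn-51: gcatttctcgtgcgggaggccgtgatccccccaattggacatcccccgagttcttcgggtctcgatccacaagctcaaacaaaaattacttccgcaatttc
Y32B12B.4: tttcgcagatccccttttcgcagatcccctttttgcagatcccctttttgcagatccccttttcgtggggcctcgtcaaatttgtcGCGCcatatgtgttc

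All 3 centre windows hold GCGC once, and among the arm windows it is found once, at Y32B12B.4. None of the 6 holds TAATTA, a longer word searched for homeodomain sites. The shorter TAAT core, read on both strands, is in the windows of zipt-9, Y50D4C.5 and pqn-51. The share of G and C is between 44.6% and 53.5% in the centre windows, and it is 38.6%, 52.5% and 50.5% in the windows of Y50D4C.5, pqn-51 and Y32B12B.4.

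Peaks lay closer together in the centre than in the arms. The centre had 16.8 peaks per Mb and the arms had 7.07, so that the centre held 70.4% of the peaks on V (interval 64.5 to 75.7%) in 50% of its length. The 2 arms were alike, with 7.26 peaks per Mb in the left arm and 6.88 in the right arm. Protein-coding genes were nearly even, at 250.8 per Mb in the centre and 226.5 in the arms. Per 1000 coding genes there were therefore 67.1 peaks in the centre and 31.2 in the arms.

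The ratio of centre to arm density on V was 2.38, or 1.81 to 3.12 across the interval of the peak shares. It was 2.24 in the list of replicate 1, with 114 centre and 51 arm peaks, and 2.53 in the list of replicate 2, with 134 centre and 53 arm peaks. On the other 5 chromosomes, counted in the same way, the ratio was between 1.03 on X and 1.38 on II, and the intervals of I, II, III, IV and X all end below 1.81. These ratios take both arms together. Sparse single arms are not particular to V: the left arms of II and III had 9.69 and 10.7 peaks per Mb, against 22.8 and 25.7 in their centres. The right arms of II and III had 23.3 and 30.8. The ranked joint list, which holds every candidate peak before the authors' threshold, differed less between the regions of V, with 201.4 candidates per Mb in the centre and 164.8 in the arms. Of 2107 candidates in the centre 8.35% were in the conservative set, of 1724 in the arms 4.29%, of 3831 on the whole of V 6.53%, and of 20827 on all nuclear chromosomes 8.09%.

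The centre was not uniform. Divided at the midpoint of the chromosome, its right side had 119 peaks, or 22.8 per Mb, and its left side had 57, or 10.9 per Mb. The same order held in replicate 1, with 75 peaks on the right side and 39 on the left, and in replicate 2, with 87 on the right and 47 on the left. In 20 equal bins along V, the bins of most peaks were 14 with 33, 15 with 32 and 11 with 28, all on the right side of the centre. The bin of fewest was bin 18, in the right arm, with 1. Bin 15 and most of bin 14 lie outside the middle 33.3% of the chromosome, and with that stretch taken as the centre and the rest as arms the ratio of densities was 1.45.

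**Figure D1:**
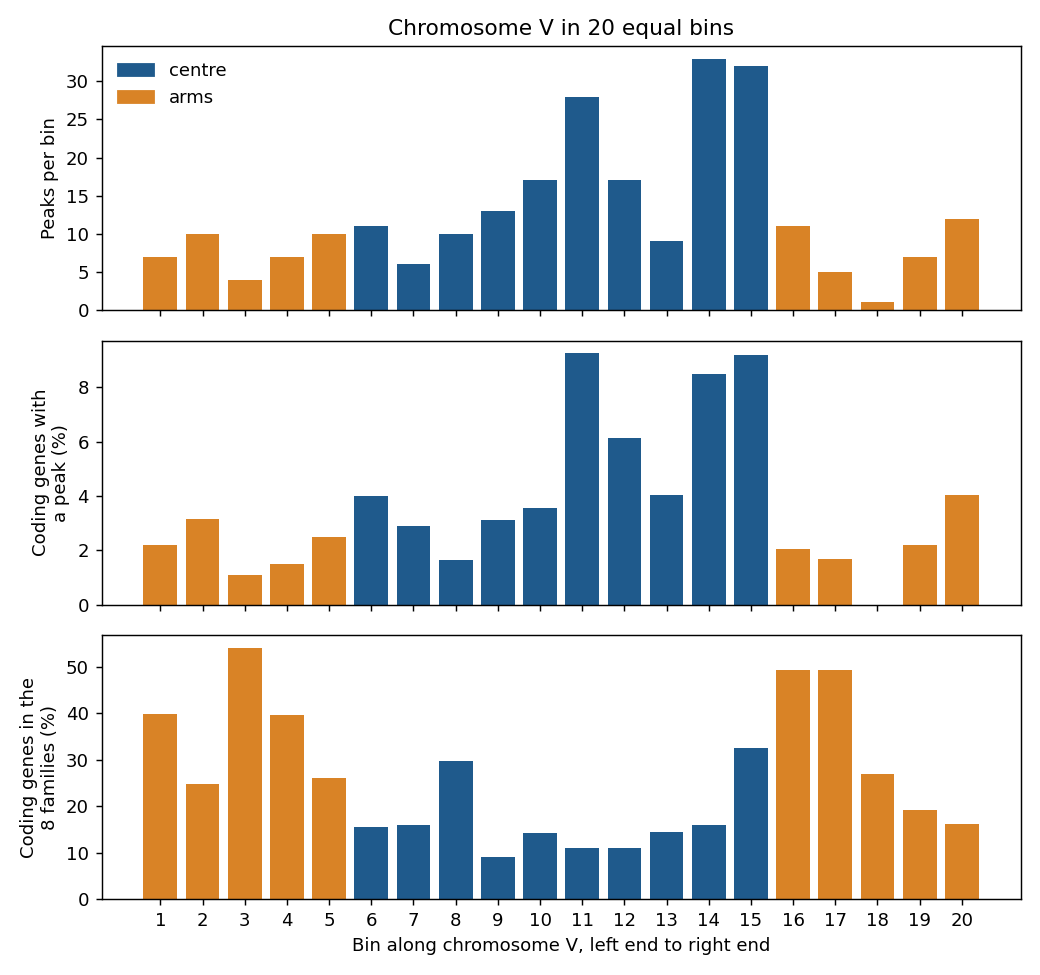
Chromosome V in 20 bins of equal length, from its left to its right end, with centre bins in blue and arm bins in orange: the number of conservative peaks (top), the percentage of protein-coding genes with a peak (middle) and the percentage of protein-coding genes that belong to the 8 families described in the text (bottom). Bins 11, 14 and 15 have 28, 33 and 32 peaks, and the families take up to 54.1% of the genes of an arm bin, in bin 3.

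Across the left boundary of the centre, the last arm peak was at pqn-51, 181.6 kb before it, and the first centre peak was at nhr-47, 274.2 kb after it. Across the right boundary, the last centre peak was at F28F8.7, 102.7 kb before it, and the first arm peak was at F57A10.2, 73.2 kb after it. Both boundaries thus fell between peaks and divided no cluster.

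Neighbouring summits were a median of 29.9 kb apart in the centre and 51 kb apart in the arms. The largest gap between neighbours was 358.9 kb in the centre and 1016.4 kb in the arms. The 5 largest gaps on V all lay in the arms. The first 2 of them, 1016.4 and 985.6 kb, adjoin each other in the right arm and are divided by a single peak near Y59A8B.24. The gap on the left of that peak, from efl-1, spans 213 coding genes, of which 104 belong to the 8 families (81 chemoreceptors and 18 F-box genes among them). The gap on its right, up to Y39B6A.43, spans 184 coding genes, of which 43 belong to the families. In the left arm, the gaps of 671.2, 641.5 and 592.2 kb span 123, 178 and 158 coding genes. The one of 641.5 kb, between W02G9.3 and arrd-19, holds 94 chemoreceptors among its 178 genes, and those of 671.2 and 592.2 kb hold 26 and 37. The 8 families make up 23.4% and 48.8% of the coding genes in the gaps of 1016.4 and 985.6 kb. In the gaps of 671.2, 641.5 and 592.2 kb they make up 30.9%, 55.6% and 46.2%. Their share of all coding genes in the arms of V is 36.6%. These gaps are not empty of weaker candidates: the ranked list has 122 and 108 of them in the gaps of the right arm, and 133, 82 and 67 in those of the left arm.

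A gene was counted as having a peak if at least 1 summit was no farther than 500 bp from one of its annotated starts. By that rule 186 of 4994 coding genes on V had a peak (3.72%), against 1110 of 19973 on all nuclear chromosomes (5.56%). In the centre of V it was 139 of 2624 genes (5.3%, interval 4.50 to 6.22%) and in the arms 47 of 2370 (1.98%, interval 1.5 to 2.63%). Both replicates gave this order, with 3.66% of centre and 1.35% of arm genes in the list of replicate 1, and 4.46% and 1.60% in that of replicate 2. The share on the right side of the centre was 7.54% (6.24 to 9.08%) and that on its left side was 2.96% (2.16 to 4.04%), so that the interval of the left side overlaps that of the arms. The left arm of II had a share close to that of the arms of V, 2.05% (1.33 to 3.14%).

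Receptor, adaptor and enzyme families expanded in C. elegans were followed as 8 lists: chemoreceptors, nuclear hormone receptors, F-box genes, MATH and BTB genes, C-type lectins, cytochrome P450s, UDP-glucuronosyltransferases and glutathione S-transferases, taken by gene name. Together they make up 17.5% of the coding genes of the centre and 36.6% of those of the arms, although all 3 MATH and BTB genes and 25 of 42 UDP-glucuronosyltransferases lie in the centre. Of their 1325 members on V, 5 had a peak (0.377%, interval 0.161 to 0.880%), 4 of 458 in the centre and 1 of 867 in the arms, against 5.56% of all nuclear genes. Few peaks at these families are not particular to V. On the other 5 chromosomes the same families had 4 of 379 in the centres (1.06%, interval 0.411 to 2.68%). In the arms there they had 4 of 711 (0.563%, interval 0.219 to 1.44%). On V, chemoreceptors, the largest family, had 2 of 890 (0.225%), and both were srh genes, of which V has 180. None of the 157 str, 95 srw, 79 srx or 68 srbc genes on V had one. Nuclear hormone receptors, ligand-regulated transcription factors, had 1 of 167, C-type lectins, a family of carbohydrate-binding proteins, 1 of 86, and MATH and BTB genes 1 of 3. No peak was found at any of the 87 F-box genes, whose products recruit targets for ubiquitination (interval up to 4.23%). The same held for the 41 cytochrome P450s (up to 8.57%), the 42 UDP-glucuronosyltransferases (up to 8.38%) and the 9 glutathione S-transferases (up to 29.9%), all enzymes of detoxification. Taken singly, each of these 4 intervals holds the 3.72% of all coding genes on V.

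Each of the 5 family members with a peak was looked at singly. The summit nearest to a family gene lay 10 bp from a start of nhr-47, a nuclear hormone receptor gene in the centre, with a signal of 194.5 in the joint list and 104.6 and 94.4 in replicates 1 and 2. It also lay within 500 bp of dnj-19, a DnaJ co-chaperone gene. The summit at srh-16 (155.5 in the joint list, 66.9 and 83.4 in the replicates) lay 85 bp from its start. The peak at bath-36 (116.2 in the joint list, 48.6 and 72.4 in the replicates) is shared with cyn-7, a cyclophilin gene.

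The peaks at the other 2 members, srh-269 and clec-57, are next to small RNA genes. The summit at srh-269, 347 bp from its start and the only one at a family gene of the arms, lies 81 bp from a tRNA gene (190.0 in the joint list, 81.8 and 105.3 in the replicates). The summit at clec-57, 451 bp from its start, lies 47 bp from an snRNA gene (113.3 in the joint list, 60.3 and 52.1 in the replicates). With peaks beside small RNA genes left out, 3 family members had a peak. Within 1000 bp in place of 500 bp it was 11 of 1325, and in the lists of replicates 1 and 2 it was 4 and 5.

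**Figure D2:**
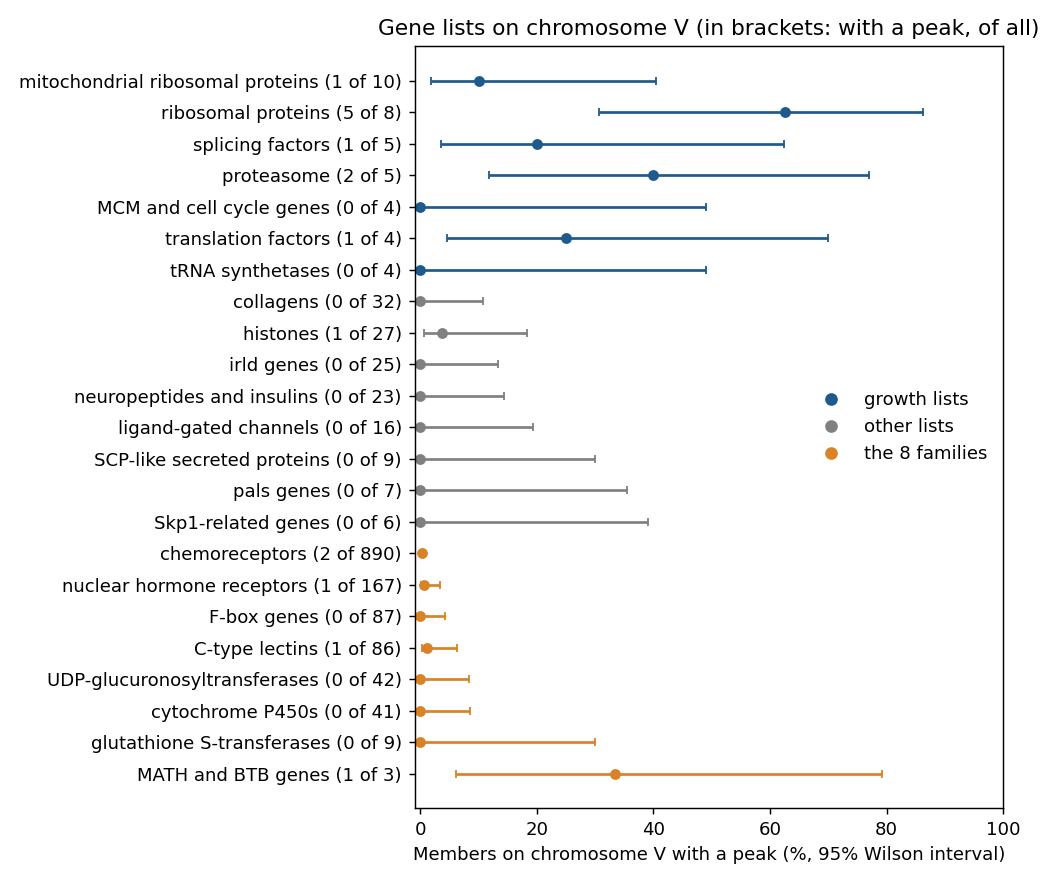
Gene lists on chromosome V, with the percentage of their members that have a summit within 500 bp of a start (horizontal axis, points) and 95% Wilson intervals (bars); the numbers in brackets are members with a peak and all members on V. Ribosomal proteins stand at 5 of 8, and chemoreceptors at 2 of 890.

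The difference between centre and arms was present outside these families too. Among genes outside the 8 families, 135 of 2166 in the centre of V had a peak (6.23%, interval 5.29 to 7.33%), against 46 of 1503 in its arms (3.06%, interval 2.30 to 4.06%). On the other 5 chromosomes together these shares were 6.47% in the centres (5.95 to 7.03%) and 6.77% in the arms (6.15 to 7.44%). The arms of V thus lay below the pooled arms of the rest, though the X arms alone were lower, at 0.729%, while the centre of V was below the centres of I, II, III and IV, at 6.72 to 10.1%, and above that of X, at 0.711%. The left and right arms of the other chromosomes were not taken singly for these genes. The interval of the V centre overlaps those of II, III and IV. On the right side of the centre of V 8.86% of such genes had a peak (7.33 to 10.7%), and on its left side 3.49% (2.54 to 4.77%). The families take nearly the same share of all coding genes on both sides, 17.46% on the right and 17.45% on the left. The left arm had 3.20% and the right arm 2.92%.

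**Figure D3:**
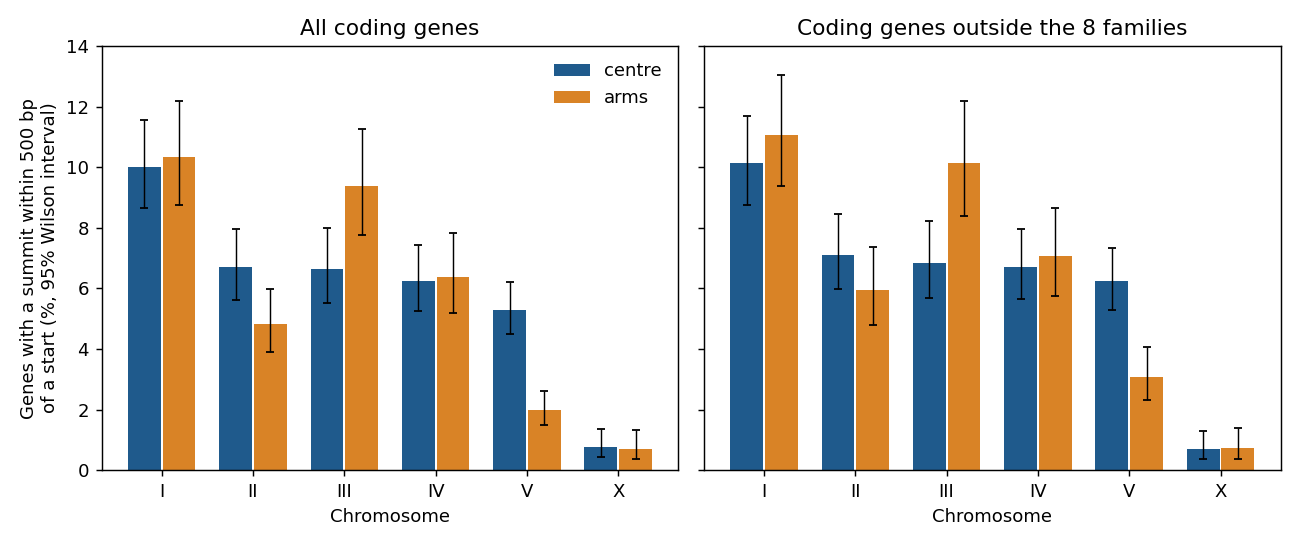
Percentage of protein-coding genes with a summit within 500 bp of a start on each nuclear chromosome (vertical axis), in the centre (blue) and the arms (orange), for all coding genes (left) and for those outside the 8 families (right), with 95% Wilson intervals as bars. On V the shares outside the families are 6.23% in the centre and 3.06% in the arms.

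Another 7 lists hold genes of protein synthesis, protein turnover, splicing or the cell cycle, called growth genes here. Of their 40 members on V, 10 had a peak (25%, interval 14.2 to 40.2%). The share was 3.72% of all coding genes on V, 5.56% of those on all nuclear chromosomes and 4.88% of genes on V in no list. The growth genes with a peak were 8 of 26 in the centre and 2 of 14 in the arms. Ribosomal proteins had 5 of 8, all named here for completeness: rps-16 (joint signal 231.1), rpl-39 and rps-30, which share 1 peak (113.4), and rpl-38 (110.0) in the centre, and rpl-11.1 (104.1) in the left arm. Proteasome genes had 2 of 5, the ATPase subunit rpt-1 (163.6) and the core subunit pas-1 (90.3). The splicing factor snr-4 (297.3), the translation elongation factor eef-1G (200.9) and, in the right arm, the mitochondrial ribosomal protein mrps-35 (97.8) were the others. The peak of eef-1G is shared with ctf-4. The tRNA synthetases and the MCM and cell cycle genes each had 0 of 4, and the mitochondrial ribosomal proteins 1 of 10, counts whose intervals hold the 3.72% of all coding genes on V. The snr-4 summit lies 381 bp from its start and 14 bp from an snRNA gene. At a stricter global IDR of at most 0.001, 4 of the 40 genes had a peak, against 3.58% of all coding genes of the centre and 1.27% of those of the arms. With only the nearest gene of each summit counted, 8 of the 40 had a peak, against 4.15% and 1.52%.

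Further lists on V are too small to be told apart from the 3.72% of all coding genes on V that had a peak, which lies within the interval of each. Collagens, the structural proteins of the cuticle, had 0 of 32 (interval up to 10.7%), neuropeptides and insulins 0 of 23, ligand-gated channels 0 of 16, and irld genes 0 of 25. SCP-like secreted proteins had 0 of 9, pals genes 0 of 7 and Skp1-related genes 0 of 6, while V has no gene of the major sperm protein list. Histones had 1 of 27 (3.70%), his-37 in the centre, with a signal of 200.5 in the joint list and 110.6 and 99.96 in the replicates.

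The signal value of a peak is the enrichment that the authors' peak caller gave it, without a unit. Its median on V was 138.6 in the centre (quartiles 105.7 and 207.3) and 124.6 in the arms (103.7 and 208.1), and on the other chromosomes it was 134.0. The medians for the same peaks were 73.0 in the centre and 68.8 in the arms in replicate 1, and 74.5 and 62.6 in replicate 2. The quartile ranges of centre and arms overlap almost completely. The median of the joint signal in the centre was 1.11 times that in the arms, and this ratio turned to 0.935 among the peaks with a global IDR of at most 0.001.

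The arms differed from each other in their strong peaks. The left arm had a median of 142.8 and 7 peaks above 500, and the right arm had a median of 118.6, none above 500 and a highest value of 466.7. The centre had 16 peaks above 500. Among the 50 peaks of highest signal on V, 34 lay in the centre, 11 in the left arm and 5 in the right arm. Peaks whose overlapping ranked peak of nearest summit was thresholded in both replicates were 99 of 176 in the centre (56.2%, interval 48.9 to 63.4%). In the arms they were 39 of 74 (52.7%, interval 41.5 to 63.7%), with 24 of 38 in the left arm and 15 of 36 in the right arm. Neighbouring summits can share the same replicate peak, which then counts for each of them. At the low end, 16 peaks (9 in the centre and 7 in the arms) had a joint signal under 50. Each of those lies between 200 and 413 bp from a stronger summit.

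**Figure D4:**
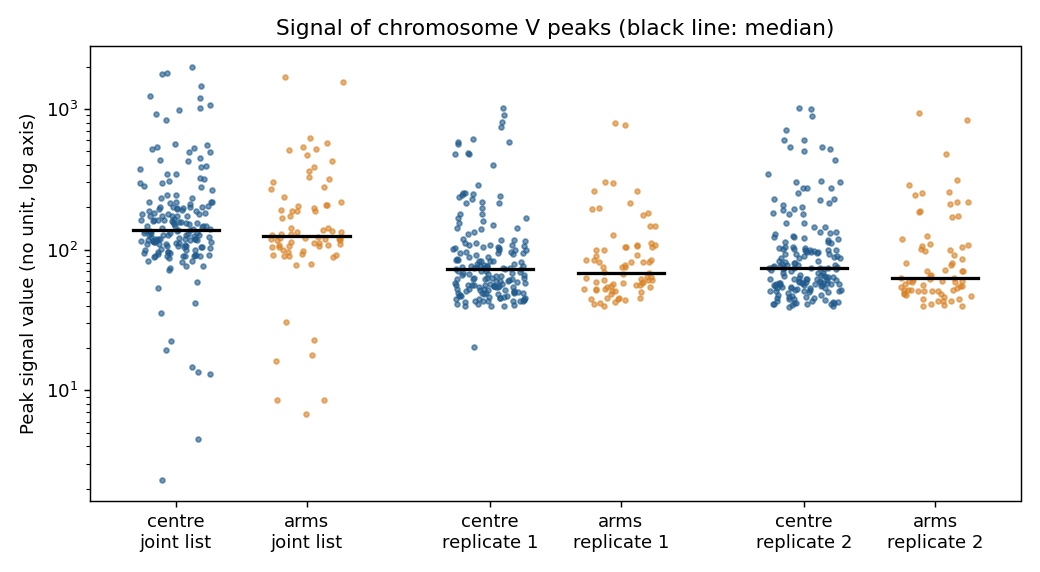
Signal value of each peak on chromosome V (points, logarithmic vertical axis, no unit) in the centre (blue) and the arms (orange), in the joint list and for the matching ranked peak of each replicate; black lines are medians. The joint medians are 138.6 in the centre and 124.6 in the arms, and the points of both regions cover much the same range.

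The peak of highest signal on V lay in the centre, 516 bp from the nearest coding start, that of vps-39, which encodes a subunit of a complex for fusion with lysosomes; it is outside the rule for named genes and was named after its value was seen. Its signal was 1997 in the joint list, and 1012 and 1018 in replicates 1 and 2. Next came zipt-9, a zinc transporter gene of the ZIP family, with 1805 in the joint list and 804.4 and 994.1 in the replicates. The peak at cept-2, a gene for the last step of phospholipid synthesis, had 1780.0, with 904.5 and 883.6 in the replicates. Both replicates had every one of these peaks in their thresholded lists.

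Several of the centre's strongest peaks lie between 2 divergent genes. The summit 96 bp from fib-1, the gene of the nucleolar methyltransferase fibrillarin, is shared with mut-15, which acts in small RNA amplification; its signal was 1463 in the joint list and 745.1 and 713.7 in the replicates. The summit 66 bp from ruvb-1, an ATPase gene of chromatin remodelling complexes, is shared with tofu-1, a gene of piRNA production (1237 in the joint list, 577.2 and 605.0 in the replicates). A summit between C55A6.10 and C55A6.1 had 1186 in the joint list, with 614.7 in replicate 1 and 434.9 in replicate 2. In all, 32 of 176 centre peaks (18.2%) and 10 of 74 arm peaks (13.5%) had coding starts of both strands within 500 bp.

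The remaining centre genes named by rank of signal carry varied roles. They are pak-2, a p21-activated kinase (1058), F44E7.4 (1008), F44E7.9 (974.8), aipl-1 (917.3), pqn-70 (549.7), lbp-4, a lipid-binding protein (524.4), aman-2, a mannosidase of N-glycan processing (522.3), sec-61.G, a subunit of the protein translocon (446.9), srp-7, a serpin (431.8), and tmed-10, a cargo receptor of the secretory pathway (428.3). For these 10 peaks the higher replicate value was between 1.07 and 1.40 times the lower one. The srp-7 summit is the one among the 15 that lies downstream of the nearest start, by 148 bp.

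In the left arm, the strongest peak was at Y50D4C.5, 176 bp upstream of its start, with a signal of 1671 in the joint list and 788.7 and 839.8 in the replicates. A second strong peak, with 1563 in the joint list and 763.1 and 932.4 in the replicates, lay 920 bp from the nearest start, that of wrb-1. It is the middle one of 3 neighbouring peaks, and a weaker one of them (186.9) lay within 500 bp of wrb-1 and Y50D4A.4. The peaks at pqn-51 (568.5) and at W02G9.3 (539.9) followed, at 169 and 172 bp from a start. A group near T10B5.3, T10B5.4 and cct-7 held 4 further named peaks. The summit shared by T10B5.3 and knl-3, a kinetochore gene, had 424.2, that at T10B5.4 had 386.5, and that shared by T10B5.4 and cct-7, a subunit of the cytosolic chaperonin, had 316.8. A summit 3450 bp from the cct-7 start had 522.2, with 262.9 and 245.3 in the replicates.

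In the right arm, the strongest peak was at Y32B12B.4, with 466.7 in the joint list and 213.7 and 257.5 in the replicates. The peak at Y39B6A.43, which ends the largest gap, had 363.0 in the joint list, with 146.7 and 210.4 in the replicates. The summit between F57A10.2 and haf-3, an ABC transporter gene, had 329.8, and the one at F57A10.4 had 302.0, for which replicate 2 (187.4) was 1.74 times replicate 1 (107.8).

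The rest of the 47 arm genes with a peak, most of them outside the rule for named genes, are given here so that the arms are complete. In the left arm they are pgl-3, a P granule component (96.2 in the joint list), coh-4, a meiotic cohesin subunit, and pid-5, a gene of piRNA silencing, which share a peak (143.0). Others there are arid-1 (134.3), atg-9, a membrane protein of autophagy (128.3), arrd-19 (120.2), K09C6.2 (118.5), Y45G5AM.9 (112.1), W02H5.16 and W02H5.19 with a shared peak (103.6), and trm-2A (92.6). The peak shared by hsp-6, the mitochondrial HSP70, and C37H5.5 had 219.6, and K11D12.14 shares the peak of pqn-51.

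In the right arm they are swsn-1, a subunit of the SWI/SNF remodelling complex (127.0), mdt-17, a Mediator subunit (108.0), and efl-1, an E2F-like factor (99.9). Also with a peak were num-1, the Numb homologue (276.8), dkf-2, a protein kinase D (121.1), dcs-1, a scavenger decapping enzyme (119.6), and dct-16 (117.6). The peak of ctps-1, CTP synthase, and pus-1, a pseudouridine synthase, is shared (92.4), as are that of mrps-35 and sws-1 and that of F31D4.2 and fkb-6, an FKBP-type prolyl isomerase (122.1). The others are Y32B12B.2 (129.8), F13A7.14 (109.6), Y43F8B.2 (106.0) and F26F2.7 (90.1). With rpl-11.1, mrps-35 and srh-269, which were given with their lists, this completes the 24 genes of the left arm and the 23 of the right arm.

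Summits of the centre lay somewhat nearer to coding starts than those of the arms, but the intervals overlap. Within 500 bp of a start were 117 of 176 in the centre (66.5%, interval 59.2 to 73.0%) and 40 of 74 in the arms (54.1%, interval 42.8 to 64.9%). Such positions cover 28.0% of the bases of the centre and 25.9% of those of the arms. In replicate 1 the shares were 66.7% in the centre and 51% in the arms, and in replicate 2 they were 67.2% and 54.7%. The median distance was 280.5 bp in the centre (quartiles 127 and 921) and 409.5 bp in the arms (174 and 1093). Of the summits within 500 bp, 98 of 117 in the centre (83.8%) and 33 of 40 in the arms (82.5%) were upstream of the start, at a median of 143 bp upstream in the centre and 170 bp in the arms.

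In the counts, the difference was between 500 and 2000 bp, for which no intervals were computed. Some arm summits at those distances were weak and lay near a stronger one. From 500 to 2000 bp there were 36 of 176 centre summits and 26 of 74 arm summits, and within 1000 bp the shares were 75.6% in the centre and 73.0% in the arms. Over 2000 bp away were 23 summits in the centre (13.1%, interval 8.87 to 18.8%) and 8 in the arms (10.8%, interval 5.58 to 19.9%). By annotation, 67.0% of the centre summits and 64.9% of the arm summits were intergenic, where intergenic bases make up 38.9% of the centre and 40.8% of the arms. Coding exons held 6.25% of centre and 2.70% of arm summits, against 29.8% and 23.6% of the bases of the same regions.

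**Figure D5:**
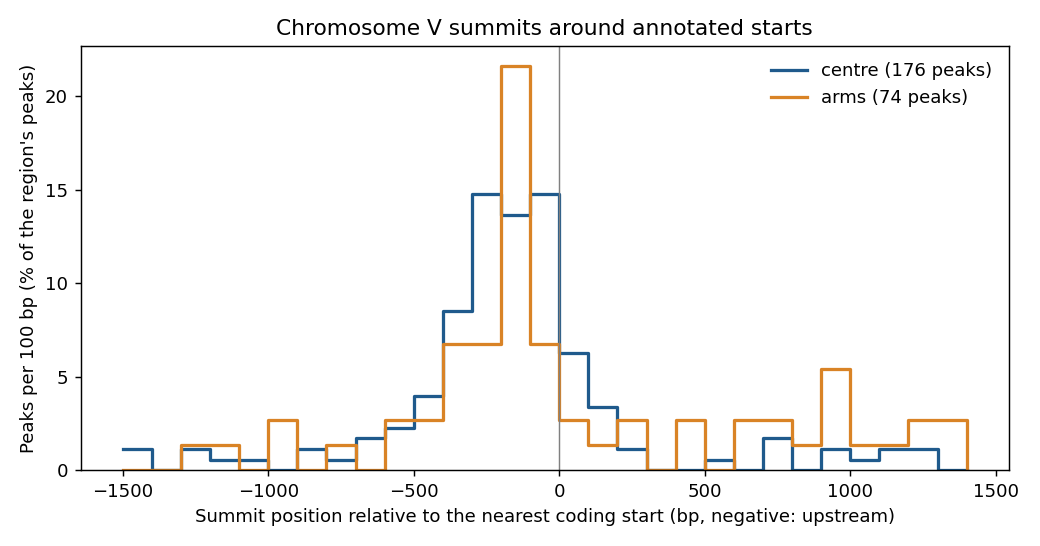
Position of chromosome V summits relative to the nearest protein-coding start (horizontal axis in bp, negative values upstream), in steps of 100 bp, as a percentage of the 176 centre peaks (blue) and of the 74 arm peaks (orange); summits farther away than 1500 bp are not drawn. Both regions are highest just upstream of the start, with medians of 143 bp in the centre and 170 bp in the arms among summits within 500 bp.

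Among the distal summits, those over 2000 bp from a coding start, 10 of 23 in the centre and 3 of 8 in the arms lay within 250 bp of a gene for a tRNA, rRNA, snRNA or snoRNA. The strongest of them in the centre, 2547 bp from F58D12.3, had 832.5 in the joint list, 487.1 in replicate 1 and 343.8 in replicate 2, and has no such gene nearby. The next 3 were each beside an snoRNA gene: one 2123 bp from K07C11.10 (565.9, 66 bp from the snoRNA gene), one in pxn-1 (492.4, 19 bp) and one in cutl-18 (315.4, 11 bp). The fifth lay in tos-1 (177.8). In the arms, the distal summits near cmd-1, the calmodulin gene (267.9, 4793 bp away), near djr-1.2 (205.4, 8641 bp) and near F59A7.7 (133.5, 3484 bp) had no small RNA gene within 250 bp. The one near W08G11.3 (167.5, 2496 bp) lay 14 bp from an snoRNA gene. The cmd-1 peak was the least even of these, with 177.4 in replicate 1 and 80.7 in replicate 2.

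Counting all distances, 36 of 176 centre peaks (20.5%) and 11 of 74 arm peaks (14.9%) lay within 250 bp of a small RNA gene. On the whole of I, II, III, IV and X the shares were 11.6%, 19.7%, 11.9%, 16.1% and 53.1%. The share of bases that close to such a gene was not computed. In the centre 16 were beside snoRNA, 13 beside tRNA and 7 beside snRNA genes, which number 40, 46 and 21 there. In the arms 3 were beside snoRNA, 5 beside tRNA and 3 beside snRNA genes, which number 15, 32 and 19. These are counts of peaks, not of genes with a peak. Some snoRNA genes of the centre and an snRNA gene of the arms have more than a single peak beside them. Of the arm peaks, 9 of the 11 were in the right arm. The 15 rRNA genes annotated on V, all in the arms, had no peak within 250 bp. The peak lists do not show how well reads could be placed at them, so absence of binding cannot be read from this count. Leaving out the peaks beside small RNA genes, summits near a coding start, by the same limit of 500 bp, made up 74.3% in the centre and 60.3% in the arms.

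The word content of the summits did not separate the regions clearly. ACGCGC, read on both strands, was the leading word of 6 bases at the summits of the other 5 chromosomes, where it was in 13.5% of windows and in 1.36% of windows 300 bp to either side. On V, which had no part in that choice, it was in 15.3% of the centre windows (interval 10.8 to 21.4%) and 21.6% of the arm windows (13.8 to 32.3%). Its share was 1.42% and 0% in the flanking windows of the same regions, and 0.830% and 1.45% in all windows of that length tiled along the centre and the arms. GCGC, which is contained in that word, was in 47.2% of the centre and 58.1% of the arm windows, against 7.32% and 11.2% of the tiled windows.

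TAATTA was in 4 of 176 centre windows (2.27%, interval 0.887 to 5.70%) and in 0 of 74 arm windows (interval up to 4.94%). It was in 4.83% and 5.41% of the flanking windows and in 5.05% and 4.35% of the tiled windows of the same regions. The interval of the centre holds both of its comparison shares, and that of the arms holds the tiled share. The windows were also richer in G and C, and the part of this in the counts of both words was not tested. The median share of G and C was 47.0% in the centre and 50.5% in the arms, against 34.7% and 36.6% in the flanks. Sequence marked as repetitive in the reference made up at least 50% of the window at 17 of 176 centre summits (9.66%, interval 6.12 to 14.9%) and 17 of 74 arm summits (23.0%, interval 14.9 to 33.8%). Of the tiled windows, 19.6% in the centre and 36.1% in the arms were of that kind, so in both regions the summits held fewer repeats than the sequence around them.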

How the data were processed

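The authors' peak lists were used as deposited, in ce11; per the deposited text lists, the replicate lists rest on 1 alignment each with a control alignment, and the joint lists on both replicates. The sources used here name neither the aligner nor the peak caller. The signal value and the scaled irreproducible discovery rate (IDR) score of each peak are scores from the deposited files, without a unit and not scaled between lists, and the ranked lists carry the authors' −log10 of the global IDR, limited to 5. From these, summits, distances, densities and shares were computed. The value of a peak in a replicate is that of the overlapping peak of the replicate's ranked list with the nearest summit. Genes are those of Ensembl release 115 on WBcel235, with 19973 coding genes, and a coding start is the 5′ end of any transcript of such a gene. The 24 gene lists go by gene name. Genes were named at the strongest peaks no farther than 500 bp from a start (15 in the centre, 10 in the arms), at the 5 strongest distal peaks of each region, at the boundaries and at the 5 largest gaps, with every member of the 8 families that has a peak and up to 4 of each other list; 1 more ribosomal protein gene and the remaining arm genes were added after their values were seen, to complete those counts. Members and lists were chosen with earlier results of these data known. Some genes near a peak are not reported here. No test was made: there is 1 group, and peaks are not replicates. Alternatives were the other joint set, each replicate's list, a global IDR of at most 0.001, other centres, windows, overlaps and words, and, chosen after seeing the data, summits within 300 bp of a stronger one left out, the sides of the centre, and ACGCGC and GCGC. The counting steps were tested on simulated data. Software was Python 3.11.15 (scipy 1.17.1, pandas 2.3.3, numpy 2.4.6, matplotlib 3.10.9).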

Additional observations from a re-analysis of the deposited data

How the results depend on the processing

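Of 93 alternative values, 61 stayed within the interval of the reported one (for the signal ratio 1 SD of the replicates, for counts 1.5 times) and 32 moved outside it. With the middle 33.3% as the centre, the ratio of peak densities was 1.45 and 3.25% of arm genes had a peak. At a global IDR of at most 0.001, the ratio of centre to arm signal was 0.935, 3.58% of centre and 1.27% of arm genes had a peak, and 3 family and 4 growth genes did. Within 200 bp of a start were 38.1% of centre and 32.4% of arm summits, with 2.86% of centre genes, 1.14% of arm genes, 3 family genes and 5 growth genes; within 1000 bp these were 75.6% and 73.0% of summits, 6.71% of centre genes and 11 family genes. Leaving out peaks beside small RNA genes gave 74.3% of centre summits near a start and 3 family genes, and counting only the nearest gene gave 4.15% of centre genes. Single replicate lists gave a signal ratio of 1.01 to 1.11, 3.66 to 4.46% of centre genes and 1.35 to 1.60% of arm genes. Of replicate 1 peaks, 84.2% in the centre and 74.5% in the arms overlapped a replicate 2 peak by at least 1 bp; with 50% of both peaks covered it was 75.4% in the centre, and against the ranked list of replicate 2 it was 97.4% and 94.1%. Of replicate 2 peaks, 68.7% in the centre and 71.7% in the arms overlapped a replicate 1 peak by at least 1 bp. The regions were thus in the opposite order, and in both directions their intervals overlap. Of the same replicate 2 peaks, 97.0% in the centre and 100% in the arms matched the ranked list of replicate 1. TAAT or ATTA in place of TAATTA was in 35.2% of centre (interval 28.6 to 42.5%) and 43.2% of arm windows (32.6 to 54.6%). That is less than in the flanking windows, at 66.2% and 63.5%, and in the tiled windows, at 66.4% and 62.6%. The part of the G and C content in this was not tested. TAATTA in windows of 100 bases either side was in 5.41% of arm windows (2.12 to 13.1%), against 12.2% of their flanking windows. The causes of these changes were not tested, apart from wider windows taking in more genes and words by construction. No paired analysis was possible because there is a single group of 2 replicates. Depth is unknown, peaks under the authors' threshold are absent from the conservative set, and with 74 arm peaks a share of 54.1% carries an interval of 42.8 to 64.9%, which limits every comparison of shares with the arms.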
